A study of Homo sapiens with 5 samples.

Results

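The aryl hydrocarbon receptor pathway was followed through 7 genes of the deposited table: the receptor gene AHR, the partner genes ARNT and ARNT2, the repressor gene AHRR, and TIPARP, CYP1B1 and CYP1A1, which the receptor is known to induce. They were found by gene symbol among 46427 genes, and all 7 passed the filter on low counts that left 16304 genes for testing. AHRR and CYP1A1 passed it through their counts in the control libraries alone. The genes were chosen with their values in this comparison known, so their levels are given as a description, with no test. RNA was sequenced from U87 MG, an established human glioblastoma line. The 2 control libraries, numbered 2 and 3, came from the line with no treatment given in the labels. The 3 sorted libraries carry the title code f2n11_csc, are labelled cancer stem cells under genotype, and were taken from the same line as CD133-positive cells. The transcript of the sort marker, PROM1, was near the detection limit in both groups, at 0.356 and 0 CPM in controls 2 and 3 and 0.390, 0 and 0 CPM in sorted libraries 1, 2 and 3, so it does not check the sort. CD133-negative or mock-sorted cells were not analysed here, and the labels do not say whether libraries of a group came from separate cultures, so the spread between them may be technical.

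The receptor waits in the cytosol with HSP90 and the co-chaperone made by PTGES3. Ligands such as dioxin, plant indoles and the tryptophan product kynurenine release it into the nucleus, where it pairs with ARNT and binds the xenobiotic response element, whose core letters are GCGTG. Its targets CYP1A1 and CYP1B1 encode cytochrome P450 enzymes that oxidise such ligands, while AHRR competes for ARNT and the mono-ADP-ribosyltransferase TIPARP marks the receptor for loss, so both act as feedback. In glioma cells, kynurenine made by the tryptophan dioxygenase TDO2 is a known ligand of the receptor.

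Start-site windows are shown for AHRR, TIPARP and CYP1A1, known targets of the receptor. These 3 were picked because they were lower in the sorted libraries, and any link between letters and levels was not tested. Windows are from RefSeq on GRCh38.p14 and run from 250 bases before to 50 after a start. They were found for 5 of the 7 genes: AHR, ARNT, AHRR, TIPARP and CYP1A1. The search was for GCGTG on both strands, so the letters CACGC also count, and capitals mark each match.
AHRR, upstream start, chr5:321464-321763, plus strand: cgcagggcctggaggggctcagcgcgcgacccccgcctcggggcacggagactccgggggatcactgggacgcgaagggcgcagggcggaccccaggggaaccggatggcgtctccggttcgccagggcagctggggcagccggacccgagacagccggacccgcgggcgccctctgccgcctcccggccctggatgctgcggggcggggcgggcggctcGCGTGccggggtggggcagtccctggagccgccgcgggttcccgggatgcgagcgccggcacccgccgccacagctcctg
AHRR, downstream start, chr5:322360-322659, plus strand: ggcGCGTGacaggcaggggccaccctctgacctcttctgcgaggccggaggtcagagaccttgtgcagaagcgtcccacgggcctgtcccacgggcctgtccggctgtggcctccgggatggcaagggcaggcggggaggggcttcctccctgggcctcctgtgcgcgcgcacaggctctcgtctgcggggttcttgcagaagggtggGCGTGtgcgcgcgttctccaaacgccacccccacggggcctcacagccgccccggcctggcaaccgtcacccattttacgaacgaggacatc
TIPARP, most upstream start, chr3:156674340-156674639, plus strand: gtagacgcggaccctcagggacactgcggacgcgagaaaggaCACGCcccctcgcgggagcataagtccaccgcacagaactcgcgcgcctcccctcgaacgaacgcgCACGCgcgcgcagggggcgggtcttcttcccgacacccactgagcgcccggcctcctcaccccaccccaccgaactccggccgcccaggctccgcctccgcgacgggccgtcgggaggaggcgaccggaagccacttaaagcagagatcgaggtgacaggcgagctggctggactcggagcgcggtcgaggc
CYP1A1, chr15:74725479-74725778, minus strand: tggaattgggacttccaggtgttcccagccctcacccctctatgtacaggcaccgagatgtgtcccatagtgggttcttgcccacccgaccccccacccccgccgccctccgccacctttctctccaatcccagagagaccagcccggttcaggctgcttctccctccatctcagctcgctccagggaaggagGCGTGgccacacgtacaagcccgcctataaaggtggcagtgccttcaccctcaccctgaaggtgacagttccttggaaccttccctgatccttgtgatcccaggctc
Positions are counted from the start site. The upstream AHRR window held 1 match, at -30, which was also the end of the longer motif TNGCGTG. The downstream AHRR window held 2 matches, at -247 and -42. TIPARP had 2 matches, at -208 and -142, and 0 in the windows of its other starts. CYP1A1 had 1 match, at -57. The AHR window held 1 match and 1 CACGTG, an E-box that reads alike on both strands and contains neither GCGTG nor CACGC, and the ARNT window held 0 of each. Such matches are common: 36.5% of 35116 promoter windows held at least 1 GCGTG, 12.7% held 2 or more, 5.51% held TNGCGTG and 7.26% held CACGTG. Among windows within 5 percentage points of the same GC content, 57.1% had as many matches as the upstream AHRR window. The share was 24.5% for the downstream AHRR window, 25.0% for the TIPARP window and 46.1% for the CYP1A1 window. A match in these letters is a description of the sequence and no evidence of binding. Sites farther from a start were not searched.

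The libraries held 17716823 to 29841238 estimated counts. Sorted library 3 stood apart: protein-coding genes took 60.9% of its counts and the 7SL RNA genes 24.4%, against 72.6 to 82.5% and 5.71 to 12.0% in the other libraries. Levels are given as normalised CPM, a gene's share of its library's counts after TMM scaling in edgeR, and as the authors' TPM, which is per transcript length and allows genes to be compared. The short 7SL genes took 25.2 and 26.6% of all TPM in controls and 37.8 to 55.0% in sorted libraries. The median log2 ratio of sorted over control for all tested genes was 0.0009 in normalised CPM, -0.40 in FPKM and -0.87 in TPM, so a TPM difference is read against that shift. In RNA from bulk cells, fewer cells that express a gene and less RNA per cell cannot be told apart. Of the 6 glioma line markers, all were detected at 1 CPM or more, and their summed level was 5045 to 5610 CPM in controls and 9784 to 14440 CPM in sorted libraries. VIM made up 3726 and 4343 CPM of that sum in the controls and 5710 to 9559 CPM in the sorted libraries. Its log2 fold change was 0.835 (adjusted p = 0.183 by edgeR's quasi-likelihood test). All 6 lymphocyte markers were at 0 counts. Of the 6 macrophage and leukocyte markers, AIF1 was at 0 in every library, and PTPRC reached 0.227 CPM in 1 library. CD68 and CSF1R were the only 2 to reach 1 CPM in any. ITGAM was at 0 in both controls and at 0.446, 0.659 and 0.983 CPM in sorted libraries 1, 2 and 3. Its adjusted p was 0.0756 by edgeR and 0.00338 by DESeq2. PTPRC, CD14 and CSF1R overlapped between the groups. The macrophage and leukocyte list summed to 104 to 147 CPM in controls and 244 to 282 CPM in sorted libraries. CD68, also a lysosomal gene of other cells, made up 100.1 to 141 and 242 to 273 CPM of that. It was higher in the sorted libraries by 1.11 log2 units (edgeR, adjusted p = 0.0479). The epithelial list, with KRT5 at 0 and 4 of 6 genes at 1 CPM or more in some library, summed to 1.51 to 2.05 CPM in controls and 4.57 to 7.94 CPM in sorted libraries. KRT8 made up 0.21 and 0.25 CPM of it in the controls and 3.90 to 4.92 CPM in the sorted libraries, while KRT18 overlapped between the groups. The endothelial list, with CLDN5 at 0, summed to 15.5 CPM in both controls and 6.58 to 9.59 CPM in sorted libraries. The astrocyte list (AQP4 and ALDH1L1 at 0) and the neuron list (RBFOX3, STMN2 and DCX at 0) overlapped between the groups. The part of these lists in the results was not tested.

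AHR, the ligand-binding receptor (gene 196, chromosome 7, 17298652 to 17346147), was among the better expressed members. Controls 2 and 3 had 204 and 238 normalised CPM, and sorted libraries 1, 2 and 3 had 315, 266 and 522. All sorted libraries lay above both controls, and sorted library 3 was far above the rest. The mean was 221 ± 24.0 CPM in controls (SD, n = 2) and 368 ± 136 CPM in sorted libraries (SD, n = 3), a ratio of 1.67, or 1.31 without sorted library 3. In TPM the groups overlapped, with 47.7 and 61.5 in the controls against 52.7, 42.6 and 39.3 in the sorted libraries. On that scale AHR ranked 1749 and 1483 among all genes of controls 2 and 3, and 1138, 1371 and 859 among those of sorted libraries 1, 2 and 3. The rank was thus nearer the top in each sorted library than in either control, although the mean TPM was lower.

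ARNT, the partner that AHR needs to bind DNA (gene 405, chromosome 1, 150809713 to 150876599), varied little within a group. It had 36.4 and 35.6 CPM in the controls against 30.5, 28.9 and 29.9 CPM in the sorted libraries. Every sorted library lay below both controls, and the control mean was 1.21 times the sorted mean. In TPM ARNT stood at 11.3 and 12.3 in the controls against 6.81, 6.10 and 2.96 in the sorted libraries, a log2 ratio of -1.15 beside the median of -0.87 for all tested genes.

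ARNT2, a paralogue known for its role in the developing hypothalamus (gene 9915, chromosome 15, 80404382 to 80597933), had a lower TPM than ARNT in every library. Its CPM was 9.14 and 10.9 in the controls against 7.75, 9.19 and 8.92 in the sorted libraries, so the groups overlapped. Within a library, where scaling between libraries drops out, the TPM of ARNT was 5.52 and 4.55 times that of ARNT2 in the controls against 5.50, 4.32 and 4.65 times in the sorted libraries. The balance of the partner genes thus overlapped between the groups. That of partner to receptor did not: ARNT per AHR, in TPM, was 0.237 and 0.200 in the controls against 0.129, 0.143 and 0.0754 in the sorted libraries. AHR itself was higher in CPM in each sorted library, and the share of all genes that were lower per AHR was not computed.

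**Figure D1:**
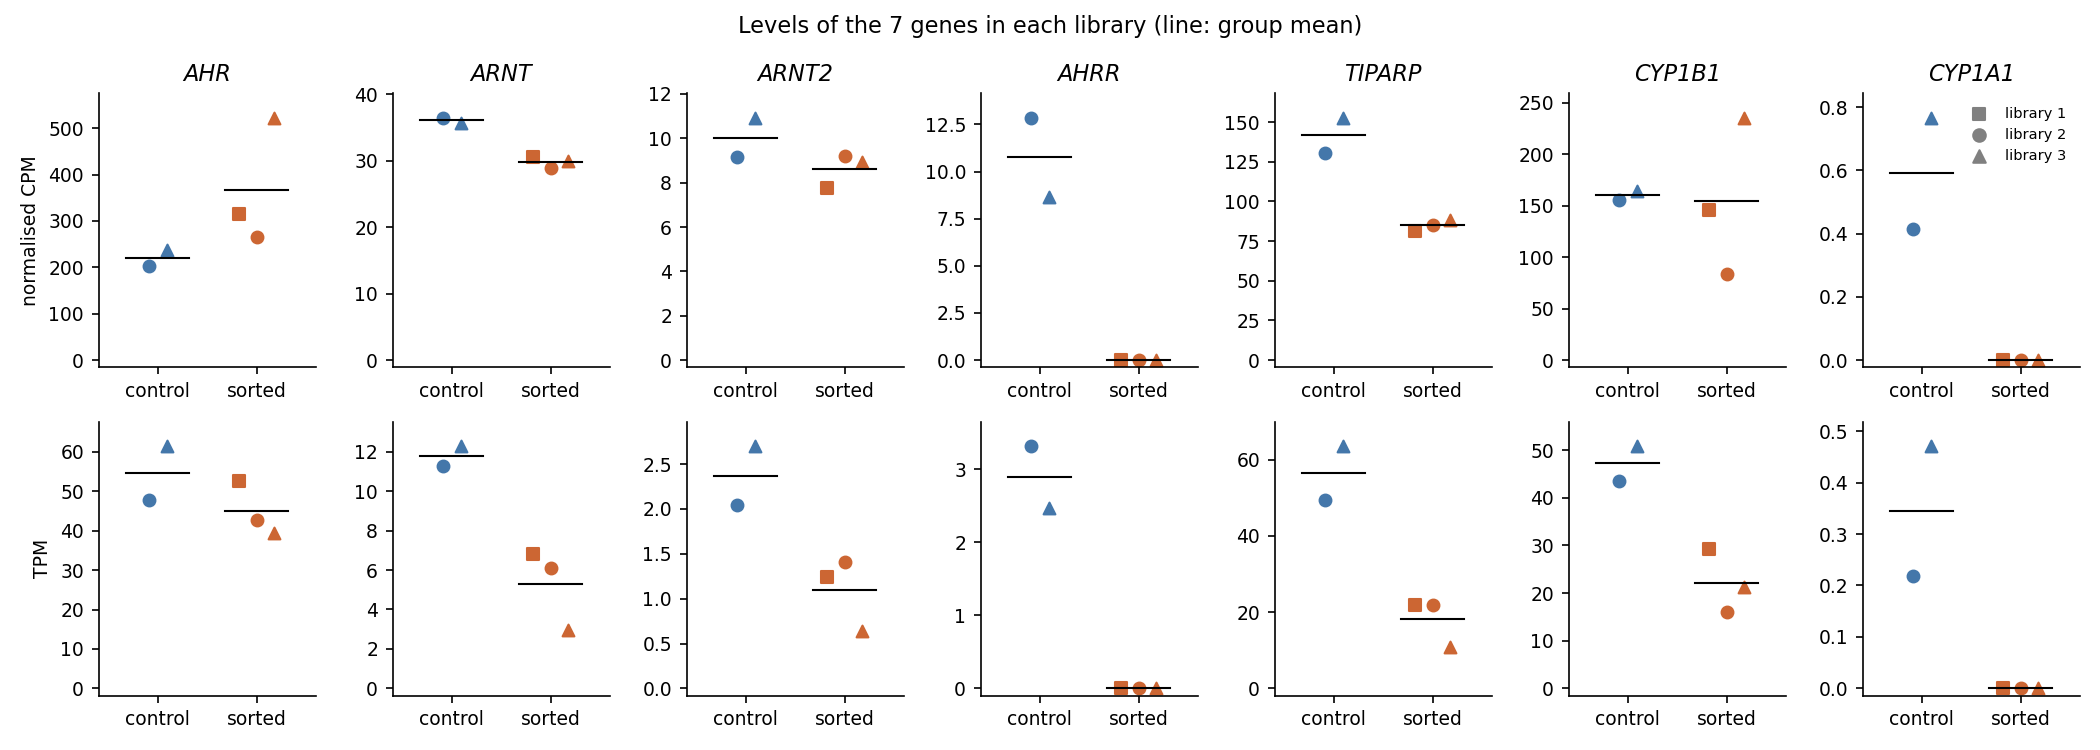
Level of each of the 7 genes by library, as normalised CPM (top row) and TPM (bottom row), with controls in blue, sorted libraries in orange, the library number as the marker shape and the group mean as a line. AHR is above both controls in all sorted libraries in CPM and overlaps in TPM, TIPARP is lower on both scales, and AHRR and CYP1A1 are at 0 in the sorted libraries.

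AHRR, the repressor that competes with AHR for ARNT (gene 57491, chromosome 5, 321714 to 438285), was counted in controls alone. Controls 2 and 3 had 433 and 316 counts, or 12.9 and 8.65 CPM, and all 3 sorted libraries had 0 counts. A count of 0 was taken to allow 3 counts per library, or 0.110 to 0.227 CPM in the sorted libraries, which makes AHRR at least 64.0-fold lower. That bound holds only for counts given to AHRR itself, because another annotated gene covers the whole of its span.

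The readthrough gene PDCD6-AHRR, a noncoding transcript class joining PDCD6 to AHRR (gene 116412618, 271646 to 438285), contains the AHRR span and had counts in every library. It had 15 and 159 counts in controls 2 and 3, while sorted libraries 1, 2 and 3 had 100, 148 and 69. In CPM this was 0.445 and 4.35 in the controls against 5.57, 5.42 and 5.22 in the sorted libraries, the reverse order to AHRR. The fitted log2 fold change of 1.17 ± 0.84 (SE) did not pass the threshold (adjusted p = 0.436, edgeR's quasi-likelihood test).

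Summed over AHRR and PDCD6-AHRR, controls 2 and 3 had 13.3 and 13.0 CPM, closer to each other than in either gene alone. Sorted libraries 1, 2 and 3 had 5.57, 5.42 and 5.22 CPM, all below both controls. The control mean of the sum, 13.2 ± 0.204 CPM (SD, n = 2), was 2.43 times the sorted mean of 5.40 ± 0.178 CPM (SD, n = 3), and 2.39 times it without sorted library 3. AHRR took 96.7% of the summed counts in control 2 and 66.5% in control 3. PDCD6-AHRR also contains the span of PDCD6 (271646 to 314974), so its counts and the sum can hold PDCD6 reads. How the counting shared reads between these overlapping genes is not given in the sources used here. A loss of AHRR and a different division of reads among the 3 genes therefore cannot be told apart.

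**Figure D2:**
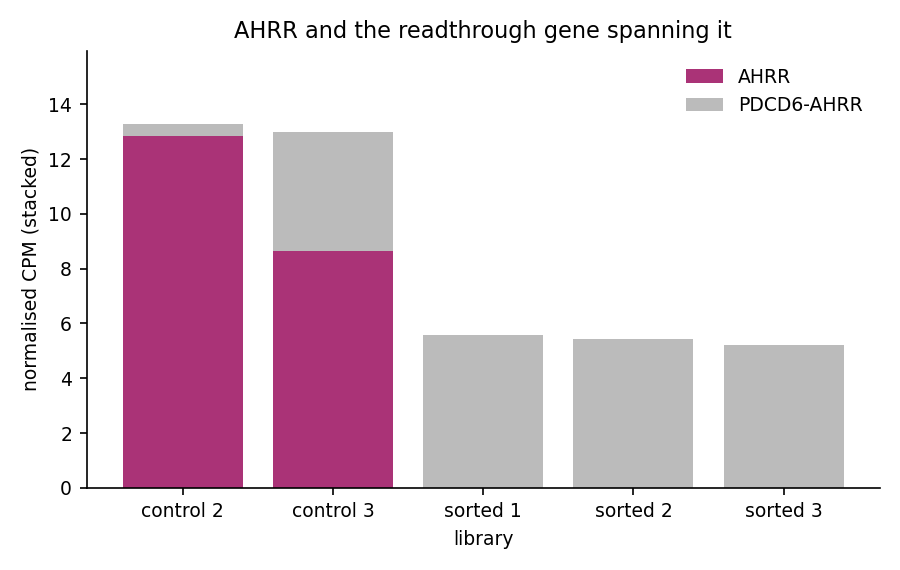
Normalised CPM (vertical axis) of AHRR (purple) and of the readthrough gene PDCD6-AHRR (grey), stacked for each of the 5 libraries. The sum is 13.3 and 13.0 in the controls and 5.22 to 5.57 in the sorted libraries, where the part counted for AHRR is 0. PDCD6-AHRR also spans PDCD6, so the grey part can hold PDCD6 reads.

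Around AHRR on chromosome 5, 13 protein-coding genes lay within 500 kb and 10 were tested. Of these 10, 0 rose and 0 fell by edgeR's quasi-likelihood test, against 2.20% and 2.40% of all tested genes. At an unadjusted p under 0.05, 2 were higher and 2 lower, and DESeq2 called 2 higher (SDHA and CCDC127) and 0 lower. Over all tested genes, 12.2% were higher and 13.6% lower at that unadjusted p, and DESeq2 called 8.76% and 8.16%. The median log2 fold change of the 10 neighbours was 0.0059, in a range from -2.68 to 0.77. In CPM 3 lay wholly above and 3 wholly below the controls, as did 22.7% and 27.7% of all tested genes. PDCD6, the calcium-binding gene in which the readthrough begins, stood at 78.9 ± 1.15 CPM in controls (SD, n = 2) and 93.5 ± 10.1 CPM in sorted libraries (SD, n = 3) (log2 fold change 0.24, adjusted p = 0.445 by edgeR's quasi-likelihood test). EXOC3, an exocyst subunit gene just beyond AHRR, had 24.2 ± 1.55 CPM in controls (SD, n = 2) and 23.1 ± 1.65 CPM in sorted libraries (SD, n = 3). SDHA, a subunit of mitochondrial complex II, stood at 59.3 and 91.4 mean CPM (log2 fold change 0.62, adjusted p = 0.0805 by edgeR, 0.00623 by DESeq2). PDCD6 and EXOC3, the coding genes on either side of AHRR, thus had counts in every sorted library.

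TIPARP, the ADP-ribosyltransferase induced by the receptor (gene 25976, chromosome 3, 156674590 to 156706770), was lower in the sorted libraries on every scale. It had 131 and 153 CPM in the controls against 81.3, 84.9 and 88.6 CPM in the sorted libraries. The groups did not overlap, and in CPM sorted library 3 lay close to the other two. The mean was 142 ± 15.5 CPM in controls (SD, n = 2) and 84.9 ± 3.67 CPM in sorted libraries (SD, n = 3), a control to sorted ratio of 1.67. In TPM it was the highest of the 7 genes in both controls, at 49.3 and 63.6, and stood at 21.9, 22.0 and 10.8 in sorted libraries, where AHR was highest. The log2 ratio of mean TPM was -1.63 beside the median of -0.87. TIPARP per AHR, in TPM, was 1.03 in both controls and 0.416, 0.516 and 0.274 in sorted libraries.

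CYP1B1, the P450 of the family that tumour and mesenchymal cells commonly express (gene 1545, chromosome 2, 38067509 to 38076151), had the widest spread among sorted libraries relative to its mean in CPM. It had 156 and 164 CPM in the controls against 146, 83.5 and 236 CPM in the sorted libraries, so the groups overlapped and sorted libraries 2 and 3 lay on opposite sides of the controls. The ratio of sorted to control means was 0.969, or 0.717 without sorted library 3. In TPM it was 43.6 and 50.9 in the controls against 29.2, 16.0 and 21.2 in the sorted libraries, which did not overlap. The log2 ratio of mean TPM was -1.09 beside the median of -0.87 for all tested genes, of which 63.2% lay wholly below the controls. CYP1B1 per AHR, in TPM, was 0.915 and 0.827 in the controls against 0.555, 0.376 and 0.540 in the sorted libraries. AHR itself was higher in CPM in each sorted library, so a gene with level CPM also has a lower ratio to it. The share of all genes that were lower per AHR was not computed, so nothing particular to CYP1B1 is read from this ratio.

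CYP1A1, the P450 most used as a readout of the active receptor (gene 1543, chromosome 15, 74719542 to 74725528), was near the detection limit. It had 14 and 28 counts in controls, or 0.416 and 0.767 CPM, and 0 counts in all 3 sorted libraries. With the mean floor of 3 counts per library, the control mean was at least 3.52 times the sorted mean. With 1 library left out, that bound ran from 2.47 (without control 3) to 4.57 (without control 2). The sister gene CYP1A2, expressed mainly in liver, had 0 counts in all 5 libraries.

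Set side by side in normalised CPM, 4 of the 7 genes (ARNT, AHRR, TIPARP and CYP1A1) had every sorted library below both controls, AHR had every one above, and ARNT2 and CYP1B1 overlapped. Among all tested genes, 27.7% lay wholly below, 22.7% wholly above and 50.4% on one side or the other. In TPM, 6 of the 7 lay wholly below and AHR overlapped, against 63.2% of tested genes wholly below. Since the genes were chosen on this comparison, nothing is read from these counts.

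By TPM the order of levels in control 2 was TIPARP, AHR, CYP1B1, ARNT, AHRR, ARNT2 and CYP1A1, and control 3 differed in having ARNT2 above AHRR. In sorted libraries 1 and 3 the order was AHR, CYP1B1, TIPARP, ARNT and ARNT2, and in sorted library 2 TIPARP stood above CYP1B1. The highest genes in controls, TIPARP and AHR, were close, at 56.5 ± 10.1 and 54.6 ± 9.77 TPM (SD, n = 2). TIPARP per AHR was 1.03 in each control. CYP1B1 and TIPARP in sorted libraries were at 22.2 ± 6.66 and 18.2 ± 6.45 TPM (SD, n = 3). TIPARP per CYP1B1 was 0.749, 1.37 and 0.508 there, so their order varied. The order of AHRR and ARNT2 also differed between the controls, at 2.89 ± 0.603 and 2.37 ± 0.467 TPM (SD, n = 2).

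**Figure D3:**
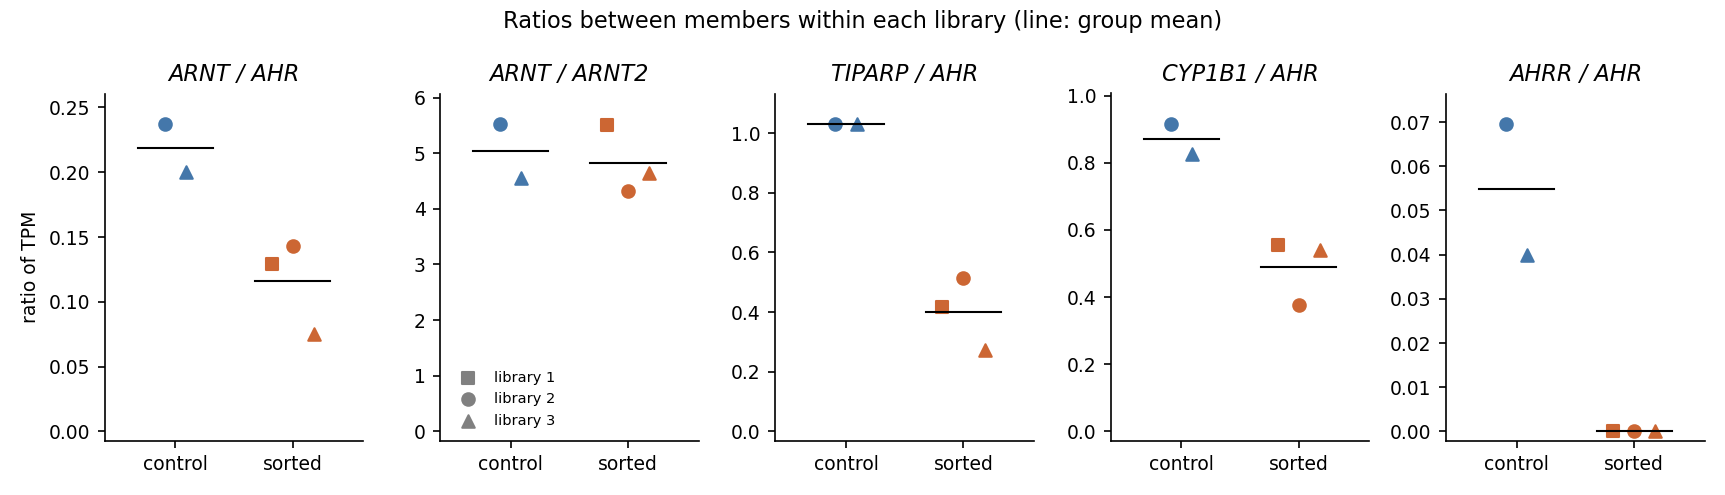
Ratio of the TPM of 2 members within each library (vertical axes), with controls in blue, sorted libraries in orange, the library number as the marker shape and the group mean as a line. ARNT, TIPARP and CYP1B1 per AHR are lower in every sorted library than in either control, while ARNT per ARNT2 overlaps between the groups. Ratios to AHR share a denominator that was itself higher in CPM in the sorted libraries.

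Written with earlier results of these data known, 7 lists arranged by role held 123 other genes of the pathway. These genes were read from the fit over all genes. Of the 101 that passed the filter on low counts, 1 rose and 5 fell in the sorted libraries (adjusted p under 0.05 over all genes, by the quasi-likelihood test of edgeR), or 5.94%, against 4.61% of all tested genes. By direction this was 0.990% higher and 4.95% lower, against 2.20% and 2.40%. The median log2 fold change was 0.04, beside -0.0017 for all tested genes. Without sorted library 3, 17 were higher and 24 lower, where 15.4% and 16.8% of all genes were. Without sorted library 1 edgeR called 0, of these and of all genes. At an unadjusted p under 0.05 that fit had 13 higher and 20 lower, where 1632 and 2109 of all 15893 genes were. DESeq2 on the same libraries called 9 higher and 11 lower, against 977 and 984 of all genes. Without sorted library 2, 0 were higher and 1, SERPINB2, was lower, where 12 and 7 of all 15576 genes were. Fits without control 2 or control 3 leave 1 control library, so their counts are not read here. The lists below are set beside the shares of all tested genes with all 5 libraries. These were 12.2% higher and 13.6% lower at an unadjusted p under 0.05, and 8.76% and 8.16% by DESeq2. By limma-trend on TPM with a pseudocount of 1 they were 0.577% and 9.20%.

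Of the receptor's reported target genes, 26 of 35 were tested, 1 rose and 4 fell, or 19.2%, beside 4.61% of all tested genes. The list was written with earlier results of these data known, so nothing is read from that share. At an unadjusted p under 0.05, 4 were higher and 10 lower. The calls by DESeq2 were 3 higher and 6 lower, and those by limma-trend on TPM 0 and 6. The growth factor gene EREG and the cytokine gene IL6, named after their values were seen, stood at 1.33 and 1.12 on the log2 fold scale (adjusted p = 0.108 and 0.0715 by edgeR, 0.00687 and 0.00344 by DESeq2). SERPINB2, a urokinase inhibitor also known as an early dioxin-responsive gene in keratinocytes (gene 5055, chromosome 18), had 339 and 310 CPM in the controls against 28.2, 28.9 and 33.7 CPM in the sorted libraries. The groups were far apart, and SERPINB2 fell by 3.43 ± 0.19 on the log2 scale (SE, adjusted p = 0.00539 by edgeR's quasi-likelihood test). IL1B, the inflammatory cytokine gene, had 663 and 496 CPM in the controls against 169, 93.4 and 135 CPM in the sorted libraries, and fell by 2.13 ± 0.30 (SE, adjusted p = 0.0251 by edgeR).

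NQO1, a quinone reductase under both AHR and the antioxidant factor NRF2, had 370 and 349 CPM in the controls against 111, 124 and 99.6 CPM in the sorted libraries (log2 fold change -1.69 ± 0.19, SE, adjusted p = 0.0158 by edgeR). STC2, a secreted glycoprotein gene named here after its values were seen, had 101 and 95.4 CPM in the controls against 29.3, 35.2 and 50.7 CPM in the sorted libraries, and fell by 1.36 ± 0.26 (SE, adjusted p = 0.0457 by edgeR). Its call was lost in edgeR with DESeq2 size factors (adjusted p = 0.0508) and with a replicate block (adjusted p = 0.0840). TGFBI, a matrix protein gene best known as a TGF-beta target, was the 1 gain, from 1242 and 1219 CPM to 3999, 4461 and 4020 CPM. It rose by 1.76 ± 0.25 on the log2 scale (SE, adjusted p = 0.0251 by edgeR). The call was lost in edgeR with library size alone (1.36, adjusted p = 0.0530) and with a replicate block (1.78, adjusted p = 0.115). It was also lost with TPM in limma-trend (0.79, adjusted p = 0.155 with a pseudocount of 1 and 0.190 with 0.1). The median over the 26 target genes was -0.20, and the list holds genes that other pathways also induce.

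Of the P450 redox partners and related haem enzymes, 10 were tested, 0 rose and 1 fell, with a median log2 fold change of -0.16. HMOX1, the inducible haem oxygenase gene and also a NRF2 target, had 118 and 133 CPM in the controls against 48.0, 44.3 and 29.0 CPM in the sorted libraries, and fell by 1.63 ± 0.25 (SE, adjusted p = 0.0298 by edgeR). The call was lost with library size alone (adjusted p = 0.0594). At an unadjusted p under 0.05, 1 of the 10 was higher and 3 lower, and DESeq2 called 0 and 2. PGRMC1, a haem-binding partner of P450 enzymes, stood at 260 and 391 mean CPM (log2 fold change 0.59, adjusted p = 0.194 by edgeR). It was -0.39 with TPM in limma-trend.

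The cytosolic complex that holds the receptor gave 0 calls among 4 genes by edgeR, 0 at an unadjusted p under 0.05 and 0 by DESeq2 and by limma-trend on TPM, with a median of 0.40. Without sorted library 3, 2 were higher and 1 lower by edgeR. HSP90AB1, the constitutive HSP90 gene, had 1642 ± 104 CPM in controls (SD, n = 2) and 2172 ± 265 CPM in sorted libraries (SD, n = 3), and the inducible HSP90AA1 had 354 ± 69.1 and 220 ± 77.5 CPM (SD, n = 2 and 3). Their log2 fold changes were 0.40 and -0.69 (adjusted p = 0.343 and 0.277 by edgeR), and 0.31 and -0.42 without sorted library 3 (adjusted p = 0.0285 and 0.0398). With library size alone and with TPM in limma-trend, that of HSP90AB1 was below 0.

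Genes that make or carry tryptophan-derived ligands gave 0 calls among 13 tested of 21 by edgeR. At an unadjusted p under 0.05, 3 were higher and 2 lower, and DESeq2 called 1 higher and 1 lower and limma-trend on TPM 0 and 3. Their median log2 fold change was 0.33. KYNU, which cleaves kynurenine, was the most abundant by TPM, with 464 ± 16.1 CPM in controls and 344 ± 80.3 CPM in sorted libraries (SD, n = 2 and 3, adjusted p = 0.327 by edgeR). Its log2 fold change was -0.43, and it passed at -0.63 without sorted library 3 (adjusted p = 0.00183 by edgeR) and at -1.64 on log2(TPM + 1) in limma-trend (adjusted p = 0.0261). SLC3A2, the heavy chain of the amino acid carrier for tryptophan and kynurenine, had 73.8 and 75.5 CPM in the controls against 50.9, 49.3 and 215 CPM in the sorted libraries. Its log2 fold change was 0.49 with all libraries and -0.57 without sorted library 3, where the adjusted p was 0.00551 by edgeR. TDO2, named after its values were seen, had 14.9 and 15.3 CPM in the controls against 8.02, 3.74 and 4.31 CPM in the sorted libraries, which did not overlap. Its log2 fold change of -1.50 ± 0.37 (SE) had an adjusted p of 0.0747 by edgeR and 0.00807 by DESeq2. IDO2 and TPH2 had 0 counts in all 5 libraries, and IDO1 stayed under 1 CPM in each.

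Coregulators gave 0 calls among 18 by edgeR, with 1 higher and 3 lower at an unadjusted p under 0.05, 1 and 2 by DESeq2 and 0 and 1 by limma-trend on TPM. The median was -0.083. NRIP1, a corepressor of nuclear receptors, had 237 and 246 CPM in the controls against 149, 107 and 66.2 CPM in the sorted libraries (log2 fold change -1.17 ± 0.34, SE, adjusted p = 0.0991 by edgeR and 0.0128 by DESeq2). DDB1, part of the ubiquitin ligase that the receptor can join, stood at 347 and 473 mean CPM (adjusted p = 0.383 by edgeR).

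The bHLH-PAS relatives, several of which also pair with ARNT, gave 0 calls among 12 by edgeR, with 4 higher and 2 lower at an unadjusted p under 0.05, 3 and 2 by DESeq2 and 0 and 0 by limma-trend on TPM. The median was 0.23. HIF1A, the hypoxia factor subunit that shares ARNT with the receptor, had 515 and 560 CPM in the controls against 891, 754 and 850 CPM in the sorted libraries. Its log2 fold change of 0.63 ± 0.21 (SE) had an adjusted p of 0.129 by edgeR and 0.00959 by DESeq2, and it was -0.33 with TPM in limma-trend. ARNTL2, a clock gene paralogue, stood at 195 and 217 mean CPM, with overlap.

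Enzymes of ADP-ribosylation other than TIPARP gave 0 calls among 19 by edgeR, with 4 higher and 2 lower at an unadjusted p under 0.05, 3 and 2 by DESeq2 and 0 and 1 by limma-trend on TPM. The median was 0.13. PARP2, a DNA-damage sensor of the family, had 27.3 and 24.0 CPM in the controls against 35.9, 47.8 and 94.2 CPM in the sorted libraries (log2 fold change 1.21, adjusted p = 0.148 by edgeR and 0.0414 by DESeq2). Without sorted library 3 it was 0.71, with an adjusted p of 0.0144 by edgeR. ADPRS, which removes ADP-ribose from serine, had 43.9 ± 5.76 and 44.6 ± 4.41 CPM (SD, n = 2 and 3).

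**Figure D4:**
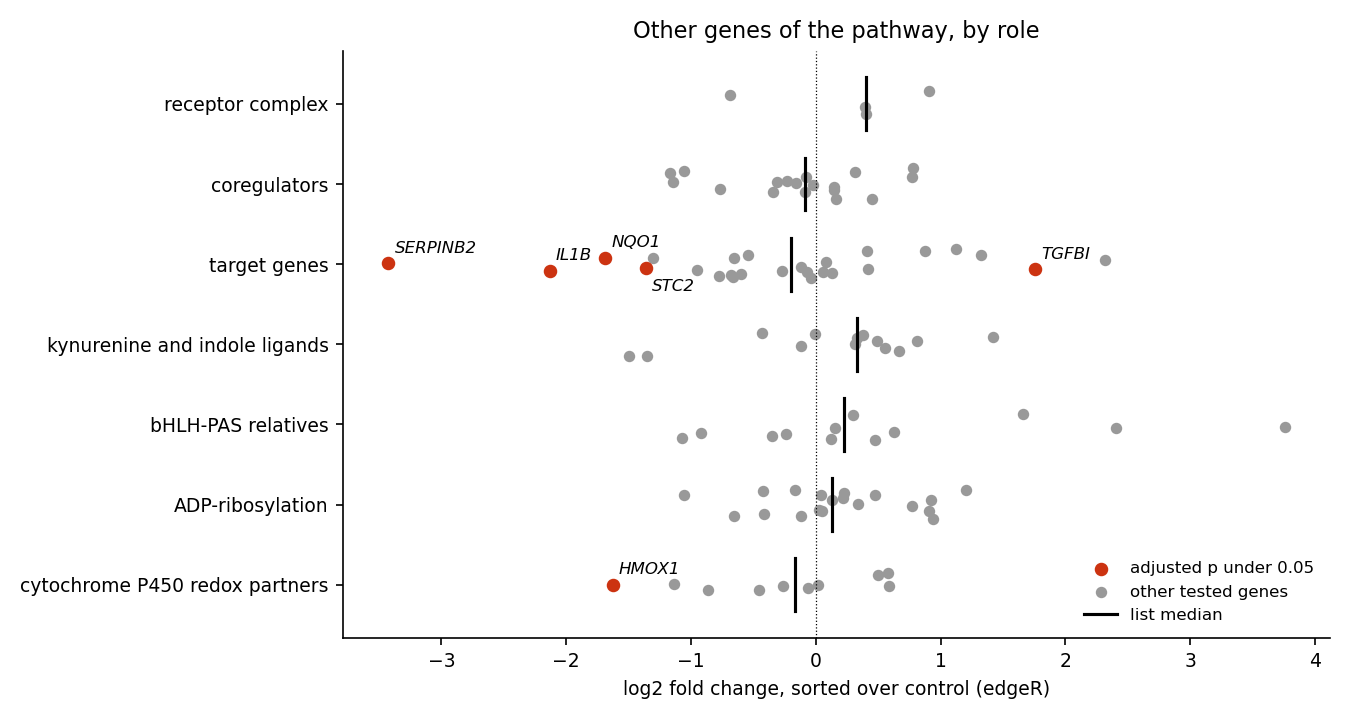
Log2 fold change of sorted over control libraries (horizontal axis, edgeR) for the 101 tested pathway genes outside the 7 members, in rows by role, with list medians as lines. The 6 genes with an adjusted p under 0.05 are in red, 5 of them among the target genes, and TGFBI is the 1 gain.

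Genes next to the other members were checked because overlapping transcripts can share counts. TIPARP-AS1, antisense at the TIPARP start, had 21 and 26 counts in the controls against 13, 28 and 40 in the sorted libraries, where TIPARP itself had 4408 and 5579 against 1459, 2317 and 1172. CYP1B1-AS1 had 24 and 14 counts in the controls against 0, 0 and 8. Strand use in the counting is not stated, so reads of a gene and its antisense partner cannot be told apart. CTSK, the cathepsin K gene that follows ARNT on chromosome 1, had 169 and 176 CPM in the controls against 19.3, 24.2 and 48.3 CPM in the sorted libraries, and fell by 2.50 ± 0.40 on the log2 scale (SE, adjusted p = 0.0305 by edgeR). RMDN2, beside CYP1B1, stood at 7.52 and 5.44 mean CPM (adjusted p = 0.297 by edgeR), and METTL15P1, a pseudogene beside TIPARP, at 4.26 and 3.43 (adjusted p = 0.697 by edgeR).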

How the data were processed

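Total RNA of 2 control and 3 sorted libraries was prepared with a stranded kit, per the labels' protocols. The submitters' processing notes list GRCh38 and StringTie but give neither a role nor a version. Neither the aligner nor the strand setting is given, nor how reads were divided between overlapping genes. The deposited table held an estimated count per gene as whole numbers, and the FPKM and TPM computed by the authors, per the file headers. Of 46427 gene identifiers, 44698 (96.3%) matched the RefSeq gene table of GRCh38.p14, used for positions.

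The estimated counts, whole as deposited and so not changed by rounding, entered edgeR 4.0.16 (R 4.3.3). Steps were filterByExpr, TMM factors, the robust quasi-likelihood F test on group alone, and Benjamini-Hochberg adjustment over 16304 genes with a threshold of 0.05. The SE of a log2 fold change is its size over the square root of F. DESeq2 1.42.0 and limma 3.58.1 were alternatives. Floors of 3 counts cover counting error only. Tests were checked on simulated counts, drawn with the same dispersion for every gene and with no library that stood apart. That check does not cover the effect of sorted library 3.

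Members and lists were chosen with earlier results of these data known. In each list, up to 4 genes past the threshold with the smallest adjusted p were named, and the 2 most abundant by TPM where fewer than 2 passed. Genes overlapping a member or within 5 kb, coding genes within 500 kb of AHRR, and the 2 genes of nearest profile per member were also named. EREG, IL6, STC2 and TDO2, and CYP1A2, IDO1, IDO2 and TPH2 for their low counts, fall outside these rules. Protein sequences were not used here.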

Additional observations from a re-analysis of the deposited data

How the results depend on the processing

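The number of calls depended on the libraries and on the scale. Over all genes, 751 passed the threshold, 427 with library size alone, 2760 with DESeq2, 1594 and 408 with limma-trend on log2(TPM + 1) and log2(TPM + 0.1), and 411 with a replicate block. Leaving out 1 library in turn gave 0 to 5172 by edgeR, and by DESeq2 428, 429, 1961, 1915 and 5213 without control 2, control 3 and sorted libraries 1, 2 and 3. Of the other pathway genes, 6 passed, 11 without a filter on low counts, 26 with DESeq2 and 12 with limma-trend on log2(TPM + 1). Leaving out 1 library gave 0 to 41 by edgeR, and 5, 7, 20, 23 and 43 by DESeq2 in the same order, an alternative chosen after seeing the data. With a replicate block 5 passed. The numbers 2 and 3 are shared by the groups, and across genes the difference between them correlated at 0.0637 between groups. That value rests on libraries 2 and 3 alone, and sorted library 3 stood apart in composition. Whether libraries of the same number share a batch is therefore not known.

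None of the 6 changed sign in the 18 other settings fitted, where the log2 fold change of TGFBI was 0.79 to 1.81 and that of STC2 -2.33 to -1.17. With all libraries, STC2 lost its call with DESeq2 size factors in edgeR, and HMOX1 and TGFBI with library size alone. STC2 and TGFBI lost it with a replicate block, TGFBI on log2(TPM + 1), and HMOX1 and TGFBI on log2(TPM + 0.1). By edgeR, 0 of the 6 kept the call without sorted library 1, and only SERPINB2 without sorted library 2. Which of the 6 kept the call in fits that leave 1 control is not listed here, but the fold changes and their ranges include those fits. Of genes that did not pass, ADPRS, ARNTL2, DDB1, HSP90AB1 and SLC3A2 had log2 fold changes of -0.36, -0.21, -0.011, -0.019 and -0.090 with library size alone. On log2(TPM + 1), ADPRS, ARNTL2, DDB1, HIF1A, HSP90AB1, PGRMC1 and SLC3A2 had -0.90, -0.76, -0.55, -0.33, -0.56, -0.39 and -0.82, and on log2(TPM + 0.1) -0.93, -0.79, -0.55, -0.33, -0.56, -0.39 and -0.83. ADPRS had -0.0014 without a filter, -0.036 with a replicate block, and -0.11 to 0.15 with 1 library left out, and SLC3A2 had -0.57 to 0.84. These scalings move the median of all genes by -0.40, -0.64 and -0.94. The cause of the other sign changes was not tested. Among the 5 members with counts in both groups, AHR changed sign, to -0.28 in both TPM fits, and CYP1B1, to 0.26 without sorted library 2. The depth limits CYP1A1, whose control counts were 14 and 28.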

Other observations

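For each member, the protein-coding genes of most similar profile were taken as those with the smallest root mean square difference in log2 CPM over the 5 libraries, each gene centred on its own mean. Among 13006 genes, COX14, an assembly factor of cytochrome oxidase, lay nearest to AHR, 0.0166 log2 units away, with 21.4 and 25.1 CPM in the controls against 32.5, 27.8 and 56.0 CPM in the sorted libraries. KPTN was next at 0.0361. ARAP2 and ZNF518B lay nearest to AHRR, at 0.0979 and 0.178, and each had 0 CPM in all 3 sorted libraries. MEX3C, an RNA-binding protein gene, lay 0.0388 from TIPARP with 48.0 and 52.8 CPM in the controls against 29.0, 29.1 and 30.3 CPM in the sorted libraries, and FRRS1 0.0393. ADTRP and UPF3B lay nearest to CYP1B1, at 0.0400 and 0.0532, FYTTD1 and ATP6V1D to ARNT, at 0.0266 and 0.0332, CRLF3 and DDX56 to ARNT2, at 0.0282 and 0.0351, and ZNF418 and KRT82 to CYP1A1, at 0.0573 and 0.0717. With 5 libraries in 2 groups, many genes share such a profile.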
